A study of Homo sapiens with 4 samples.

Results

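The classical histone deacetylase (HDAC) genes are described here in RNA that came down with the sirtuin SIRT7 and in total RNA of the same cells. Members were the 10 genes HDAC1, HDAC2, HDAC3, HDAC4, HDAC5, HDAC6, HDAC7, HDAC8, HDAC10 and HDAC11, matched by gene name in a table of 23615 genes, and all 10 were among the 14555 genes with enough fragments to be tested. The cells of all libraries were HEK 293T, a human embryonic kidney line, stably overexpressing Flag-tagged SIRT7, and the growth medium was the same for all. The 2 RIP libraries hold RNA recovered by RNA immunoprecipitation on an anti-Flag gel, and the 2 input libraries hold total cellular RNA. Ribosomal RNA was depleted from both kinds of RNA. SIRT7 was made from a construct, so the pull-down is of an overexpressed, tagged protein. A pull-down from cells without the tag was not analysed here, and RNA held by the gel itself is therefore part of the RIP values.

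Histone deacetylases remove acetyl groups from lysines of histones and other proteins. The classical enzymes use a zinc ion, whereas sirtuins such as SIRT7 consume NAD+. Class I enzymes are mostly nuclear: HDAC1 and HDAC2 share the NuRD, SIN3 and CoREST corepressor complexes, HDAC3 is the catalytic subunit of the NCoR/SMRT complex, and HDAC8 acts on the cohesin subunit SMC3. The class IIa enzymes HDAC4, HDAC5 and HDAC7 have weak activity of their own, bind MEF2 transcription factors and move between nucleus and cytoplasm. Class IIb holds HDAC6, a cytoplasmic tubulin deacetylase, and HDAC10, a polyamine deacetylase. HDAC11 alone makes up class IV and removes fatty acyl groups.

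The RIP libraries had 25655455 and 25998032 fragments on genes, and the input libraries 18131602 and 17310753. SIRT7 mRNA, which codes for the tagged protein itself, made up 3.38% ± 0.0437 of fragments in RIP and 0.15% ± 0.00136 in input (SD, n = 2 each). Fragments of the construct and of the endogenous gene cannot be told apart. The rise of this mRNA does not by itself show that RNA bound by SIRT7 protein was recovered. Of 7 markers chosen for HEK293T cells, 5 exceeded 1 FPKM in all 4 libraries, with VIM and KRT18 highest, and the kidney factors PAX2 and LHX1 were below 1 FPKM. Of 7 markers of other cell types 3 (CD3E, HBB, INS) had no fragment, and the list summed to between 1.67 and 1.86 FPKM in RIP and between 1.246 and 1.504 FPKM in input, most of it COL1A1. No label tells if a group's 2 libraries are of separate cultures, so p-values measure only how these libraries vary, which may be technical. The libraries are bulk RNA, in which fewer cells with an mRNA and less of it per cell cannot be told apart.

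Per length, the class I mRNAs were the most abundant HDAC mRNAs in both RIP and input. The scale is FPKM, fragments per kilobase of transcript and per unit of library size. HDAC1 stood first, at 120.2 and 116.1 FPKM in the RIP libraries and 129.8 and 126.9 FPKM in the input libraries. HDAC3 followed at 99.3 ± 10.1 FPKM in RIP and 51.4 ± 2.84 FPKM in input (SD, n = 2 each). HDAC8 and HDAC2 came next. The lowest level was that of HDAC4, at 1.001 and 1.029 FPKM in RIP and 1.64 and 1.47 FPKM in input. The order of the 10 levels was the same in RIP and input at the top 4 places and the last 2. HDAC5 stood above HDAC6 in RIP, while in input their libraries overlapped, and HDAC11 stood above HDAC7 in RIP and below it in input. No other neighbours in either order overlapped between libraries.

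**Figure D1:**
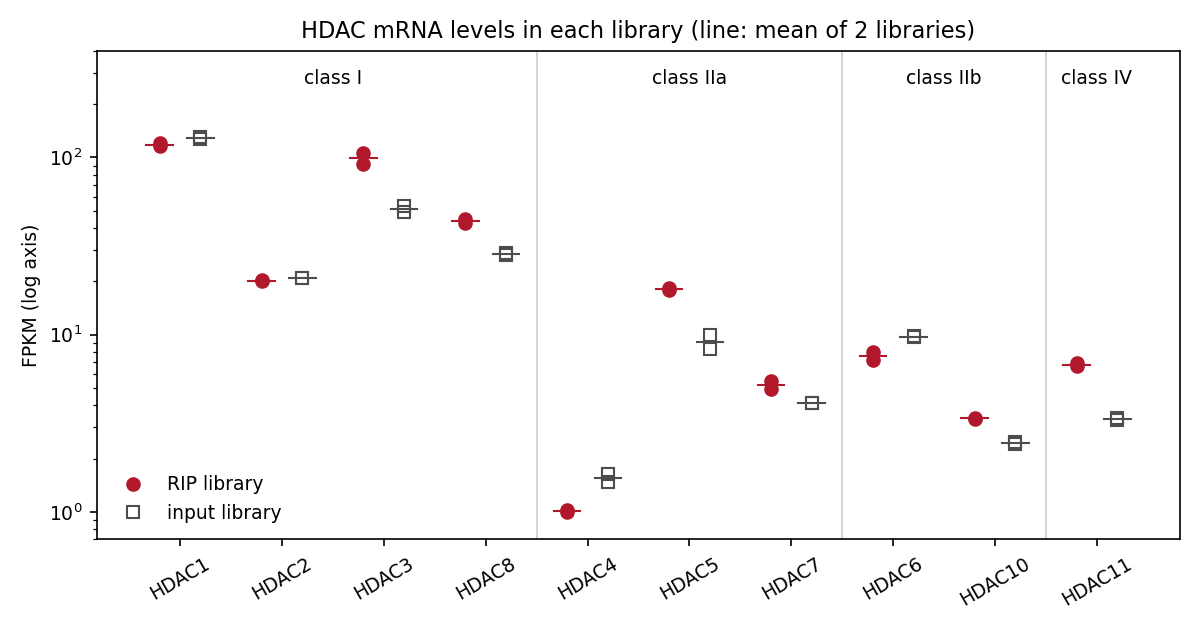
FPKM of each HDAC gene on a log axis, with filled circles for the 2 RIP libraries and open squares for the 2 input libraries, and a line at each mean. The class I genes lie between 20.1 and 129.8 FPKM, and HDAC3, HDAC5 and HDAC11 show the widest gaps between RIP and input.

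Among class I genes, HDAC3 and HDAC8 rose and HDAC1 and HDAC2 did not pass the test. Levels from here on are CPM, fragments scaled to library size, with sizes adjusted by TMM factors so that the bulk of genes is level between libraries, and p-values are from edgeR's quasi-likelihood test, adjusted over all tested genes. HDAC3 had 198.2 and 172.0 CPM in the RIP libraries, against 94.2 and 99.9 CPM in the input libraries. The lower RIP library was well above the higher input library, and the 1.91-fold rise (0.93 on the log2 scale, SE 0.0791) had an edgeR adjusted p of 2.496e-08. HDAC8 had 69.7 and 73.4 CPM in RIP, against 53.8 and 50.9 CPM in input. Its groups were apart too, by a smaller step of 1.37-fold (log2 fold change 0.45, SE 0.0757, edgeR adjusted p = 5.515e-05).

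HDAC1 had 242.7 and 234.9 CPM in RIP, against 267.9 and 257.2 CPM in input. Both RIP libraries lay slightly below both input libraries, and the difference did not pass the test (log2 fold change -0.14, SE 0.0674, edgeR adjusted p = 0.07534). It did pass without the second input library (adjusted p = 0.02853). HDAC2, the close paralogue of HDAC1, had 138.3 and 140.1 CPM in RIP, against 146.9 and 144.9 CPM in input (log2 fold change -0.07, SE 0.0671, edgeR adjusted p = 0.3649). HDAC1 and HDAC2 together held most class I fragments in input, and neither was called in RIP against input.

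For HDAC8 the fold differed between the scales. Its effective length in the deposited table, the abundance-weighted length that turns fragments into FPKM, was 0.567 and 0.568 times that of the median tested gene in the RIP libraries and 0.633 and 0.631 times in the input libraries, a difference of -10.23%. HDAC8 was the only member (1 of 10) whose effective length differed by over 5% between groups, which held for 5.59% of 14463 tested genes with a length in every library. In FPKM the HDAC8 fold was 1.54, since the same fragments were spread over a shorter estimated length. Which isoforms lie behind this cannot be read from gene-level values.

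The class IIa genes went both ways: HDAC5 and HDAC7 rose and HDAC4 fell. HDAC5 had 97.6 and 100.8 CPM in RIP, against 46.4 and 54.7 CPM in input. This was the second highest fold of the 10 members, 1.96 (log2 fold change 0.97, SE 0.0838, edgeR adjusted p = 2.943e-08). HDAC7 had 23.3 and 21.1 CPM in RIP, against 18.0 and 17.7 CPM in input. Its rise was small, 1.25-fold (0.32 on the log2 scale, SE 0.0989, edgeR adjusted p = 0.008633), and it did not pass without the first RIP library (log2 fold change 0.25, adjusted p = 0.09184). The HDAC7 gene overlaps SLC48A1, a heme transporter gene, in the RefSeq annotation (GRCh38.p14). SLC48A1 had at most 325 fragments in a library and rose as well (log2 fold change 0.68), and whether the authors' counting used strand is not given in the sources used here, so shared fragments cannot be separated. HDAC4 had 9.38 and 9.67 CPM in RIP, against 15.7 and 13.9 CPM in input. It showed the lowest fold change of the 10 members, at -0.64 on the log2 scale (SE 0.1221, edgeR adjusted p = 0.0001969).

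The other class IIa gene, HDAC9, was not among the 10 members and was looked at after its values were seen. It was rare, with 14 and 18 fragments in the RIP libraries and 65 and 49 in the input libraries. It fell by 1.64 on the log2 scale (SE 0.3054, edgeR adjusted p = 0.0001517), further than any of the 10 members.

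The class IIb genes also moved apart. HDAC6 had 33.37 and 29.99 CPM in RIP, against 41.7 and 40.6 CPM in input. It fell by 0.38 on the log2 scale (SE 0.0867, edgeR adjusted p = 0.0009394). HDAC10 had 8.98 and 8.92 CPM in RIP, against 6.63 and 6.51 CPM in input. It rose 1.36-fold (log2 fold change 0.45, SE 0.1401, edgeR adjusted p = 0.008831), a call that DESeq2's Wald test did not make (log2 fold change 0.46, adjusted p = 0.06766). These values rest on 179 and 180 fragments in RIP and on 156 and 144 in input.

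HDAC11, the class IV gene, had 19.3 and 19.9 CPM in RIP, against 9.94 and 9.58 CPM in input. Both RIP libraries were about level and well above both input libraries, and the fold of 2.01 was the highest of the 10 members (log2 fold change 1.0045, SE 0.1098, edgeR adjusted p = 4.928e-07). In the order of fold changes, HDAC11, HDAC5 and HDAC3 did not differ beyond the spread over their pairs of RIP and input libraries. The same held for HDAC8 and HDAC10 and for HDAC2 and HDAC1, while the ranges of all other neighbours in that order did not overlap. Such a range can be narrower than the SE, as for HDAC10 (0.4288 to 0.4645, SE 0.1401). The SE of HDAC10 reaches the value of HDAC7 (0.32, SE 0.0989), so the order of these 2 genes is not settled.

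In all, 6 of 10 HDAC genes passed the test as higher in RIP and 2 as lower. Of all tested genes 38.0% were higher and 39.7% lower, so a call as such is the common case in these libraries. The median log2 fold change was 0.38 for the 10 genes and -0.03 for all tested genes. The RIP and input libraries did not overlap for any of the 10 genes, which was also so for 89.2% of all tested genes. By class, 2 of 4 class I genes were higher and none lower, 3 of 5 class II genes were higher and 2 lower, and the class IV gene was higher. The median log2 fold change was 0.19 for class I, within a range of -0.14 to 0.93, and 0.32 for class II, within a range of -0.64 to 0.97.

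These directions are relative to the TMM scale. When libraries were scaled by their totals alone, the median of all tested genes moved to -0.76, and 17.0% of genes were higher and 65.5% lower. On that scale 3 HDAC genes were higher (HDAC11, HDAC5 and HDAC3, at 0.27, 0.24 and 0.20) and 6 were lower. HDAC8, HDAC10 and HDAC7 were then at -0.28, -0.28 and -0.41, HDAC10 without a call (edgeR adjusted p = 0.076). HDAC1 and HDAC2 were at -0.87 and -0.80, both called. A change of library scaling moves every gene by nearly the same amount, so distances to the median gene are kept by construction. HDAC5 was 1.003 above the median gene on both scales, and HDAC1 was 0.11 below it on both (-0.1071 and -0.1076). These distances do not tell which scale is right.

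The make-up of the HDAC fragments within a library does not depend on any scaling between libraries. HDAC1 made up 28.9% ± 0.0778 of the fragments on the 10 genes in RIP and 37.6% ± 0.898 in input (SD, n = 2 each), the share that shrank most in percentage points. HDAC3 made up 22.4% ± 1.68 in RIP and 13.9% ± 0.658 in input. HDAC5 made up 12.0% ± 0.587 in RIP and 7.24% ± 0.887 in input. The share of HDAC2 was 16.9% ± 0.587 in RIP and 20.9% ± 0.0919 in input, and that of HDAC6 was 3.83% ± 0.191 in RIP and 5.89% ± 0.0834 in input. All 5 of these differences exceeded the spread between the 2 libraries of a group. With 2 against 2 libraries an exact two-sided permutation test cannot go below p = 0.33, so shares and ratios are given as values. The sum over the 10 genes, in contrast, depends on the scale. It was 0.0641% ± 0.00169 of all fragments in RIP and 0.09% ± 0.00146 in input (SD, n = 2 each), which is lower in RIP. In FPKM it was 331.9 and 315.2 in the RIP libraries and 258.7 and 260.2 in the input libraries, which is higher in RIP.

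**Figure D2:**
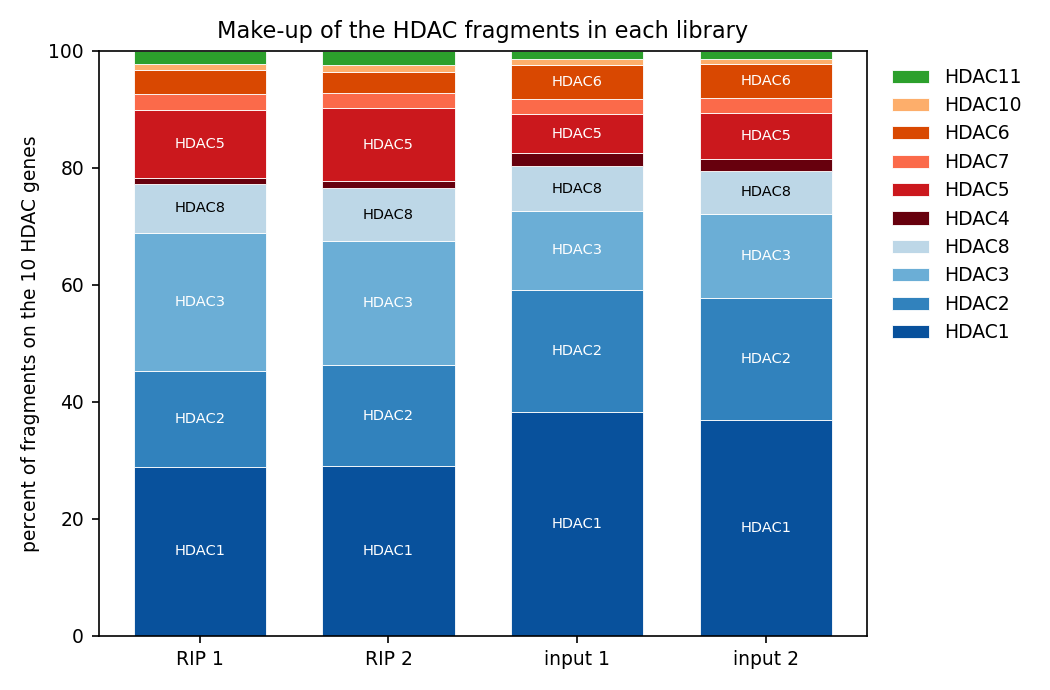
Percent of the fragments on the 10 HDAC genes that fell on each gene, stacked by library, with the 2 RIP libraries left of the 2 input libraries. The blue class I blocks fill 76.8% on average in RIP and 79.9% in input, and within them the HDAC3 block is wider and the HDAC1 block narrower in RIP.

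Class as such separated RIP from input little. Class II fragments per class I fragment were 0.266 and 0.275 in the RIP libraries and 0.228 and 0.241 in the input libraries. The 4 values did not overlap between groups, but the difference was small (log2 of the ratio of means 0.20), and in FPKM it was 0.09. It depended on single genes: the mean log2 ratio, RIP minus input, was 0.20 with all genes, -0.34 without HDAC5 and -0.03 without HDAC1. It was 0.12 without HDAC2, and without HDAC6, HDAC3 or HDAC4 it was 0.45, 0.43 or 0.30.

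Some pairs of genes within a class differed between RIP and input by more than the classes did, and the pairs named here were chosen after their values were seen. HDAC3 had 0.817 and 0.732 fragments per HDAC1 fragment in the RIP libraries, against 0.351 and 0.389 in the input libraries, a 2.09-fold difference of the mean ratio. HDAC2 per HDAC1 was 0.57 and 0.597 in RIP, against 0.548 and 0.564 in input, so these paralogues kept nearly the same proportion. HDAC5 had 10.4 fragments per HDAC4 fragment in both RIP libraries, against 2.95 and 3.95 in the input libraries. This 3.02-fold difference was the highest of the 10 pairs computed. The 2 mRNAs differ in effective length, at 1.91 times the median tested gene for HDAC5 and 3.27 times for HDAC4. Over all tested genes longer mRNAs had lower fold changes, and that trend was -0.70 and -1.18 on the log2 scale at these lengths. HDAC7 per HDAC6, an mRNA of nearly the same length, was 0.699 and 0.704 in RIP, against 0.432 and 0.435 in input.

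Length was the other property set against the classes. Longer mRNAs had lower fold changes over all 14555 tested genes, with a Spearman rho of -0.60 (computed across genes, which share the libraries and are no replicates). Effective lengths are given in multiples of the median tested gene, since the table names no bases. HDAC8, HDAC3 and HDAC1 were short, at 0.60, 0.65 and 0.70. HDAC2 is a class I gene with a long mRNA, at 2.404, longer than 91.1% of tested genes. Class II ran from HDAC10 at 0.92 through HDAC6 at 1.45, HDAC7 at 1.48 and HDAC5 at 1.91 to HDAC4 at 3.27, and HDAC11 was at 1.008. Short class I and long class II mRNAs thus describe 3 of 4 and 4 of 5 genes, with HDAC2 and HDAC10 as the exceptions.

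Among the 10 genes the fold change followed length only loosely (Spearman rho = -0.38, n = 10, a description of genes that share the same 4 libraries). All tested genes were split into 10 groups of equal size by length, and each HDAC gene was set against its own length group. HDAC5 had a higher fold change than 98.7% of genes in its length group, whose median was -0.81 on the log2 scale. HDAC11 was above 93.0% of its group, HDAC2 above 91.2% and HDAC7 above 87.0%. The group of HDAC2 ran from 2.31 to 34.1 in length, and HDAC2 at 2.404 lay near its short end. Most genes it was ranked against were thus longer. The trend over all tested genes was -0.92 at the length of HDAC2, above the group median of -1.13. HDAC4, the longest, was above 73.8% of a group with a median of -1.13, although its own fold change was negative. HDAC1 was above only 28.85% of its group, whose median was 0.32. HDAC8 lay near the middle of its group, at 47.6%.

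**Figure D3:**
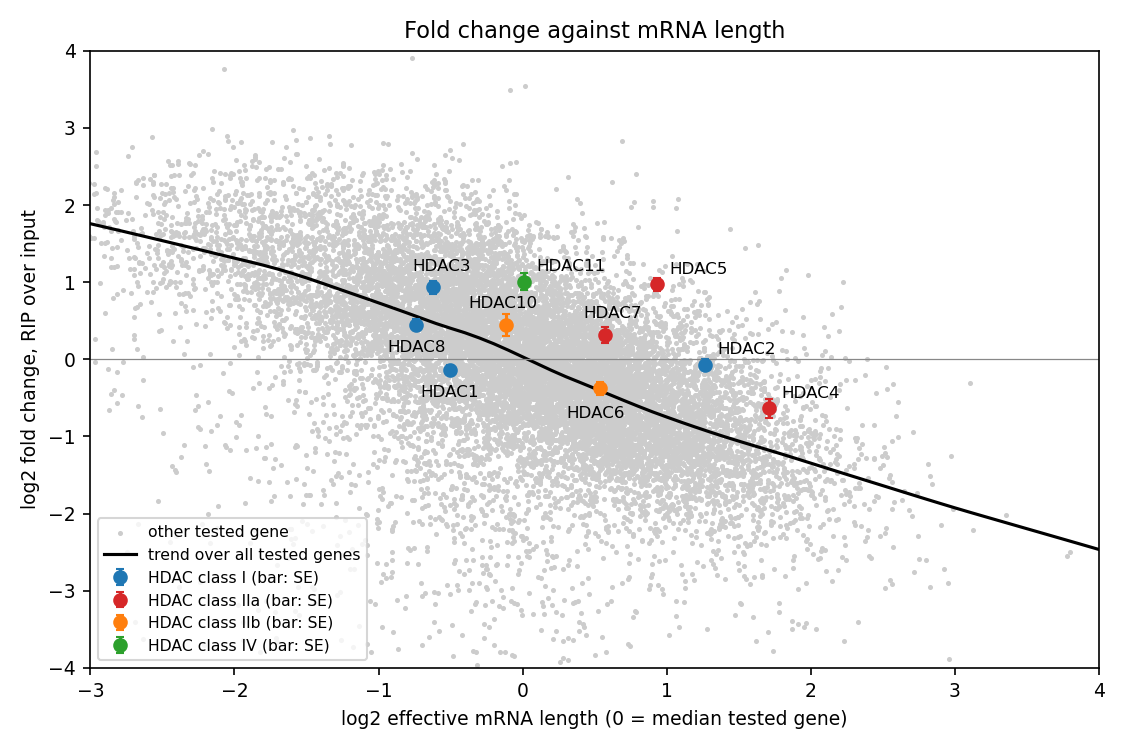
Log2 fold change of RIP over input against log2 effective mRNA length for all tested genes within the axis limits (grey), with the trend over all tested genes (line) and the 10 HDAC genes coloured by class with their SE. HDAC5 lies farthest above the line, HDAC11, HDAC2, HDAC7, HDAC4, HDAC3 and HDAC10 also lie above it, HDAC1 and HDAC8 lie below it, and HDAC6 lies on it.

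The length trend was then taken out of the fit with offsets. HDAC5 was at 1.67 on the log2 scale after this correction (SE 0.0845, edgeR adjusted p = 2.85e-10). HDAC11 was at 0.98, HDAC2 at 0.85, HDAC7 at 0.75, HDAC4 at 0.54 and HDAC3 at 0.45, all past the threshold, the last with adjusted p = 0.0001066 and HDAC4 with adjusted p = 0.001135. HDAC1 was the only member that was lower after correction, at -0.54 (SE 0.0676, edgeR adjusted p = 3.824e-06). HDAC10 at 0.31 (edgeR adjusted p = 0.05923), HDAC8 at -0.11 (adjusted p = 0.2204) and HDAC6 at 0.03 (adjusted p = 0.7856, and -0.051 without the first RIP library) did not pass. This gave 6 of 10 higher and 1 lower, against 33.6% and 34.6% of all tested genes. The corrected values of the 10 genes tended to be higher for longer mRNAs (Spearman rho = 0.64, n = 10, again a description), beside a rho of 0.028 over all tested genes.

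Correction changed the direction of 4 genes. HDAC4 and HDAC2 turned from negative to positive values and were then called, while HDAC6 and HDAC8 turned and ended without a call. HDAC8 is the gene whose effective length differed between groups, and its corrected value rests on the median of the 4 lengths. The 3 class IIa members were called higher after correction, while HDAC9, the class IIa gene outside the members, was called lower (-1.21, edgeR adjusted p = 0.002626). In class I the corrected values spread from -0.54 for HDAC1 to 0.85 for HDAC2, the pair that had kept its proportion before correction. The trend taken out was 0.41 at the length of HDAC1 and -0.92 at that of HDAC2, which makes up most of this gap.

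**Figure D4:**
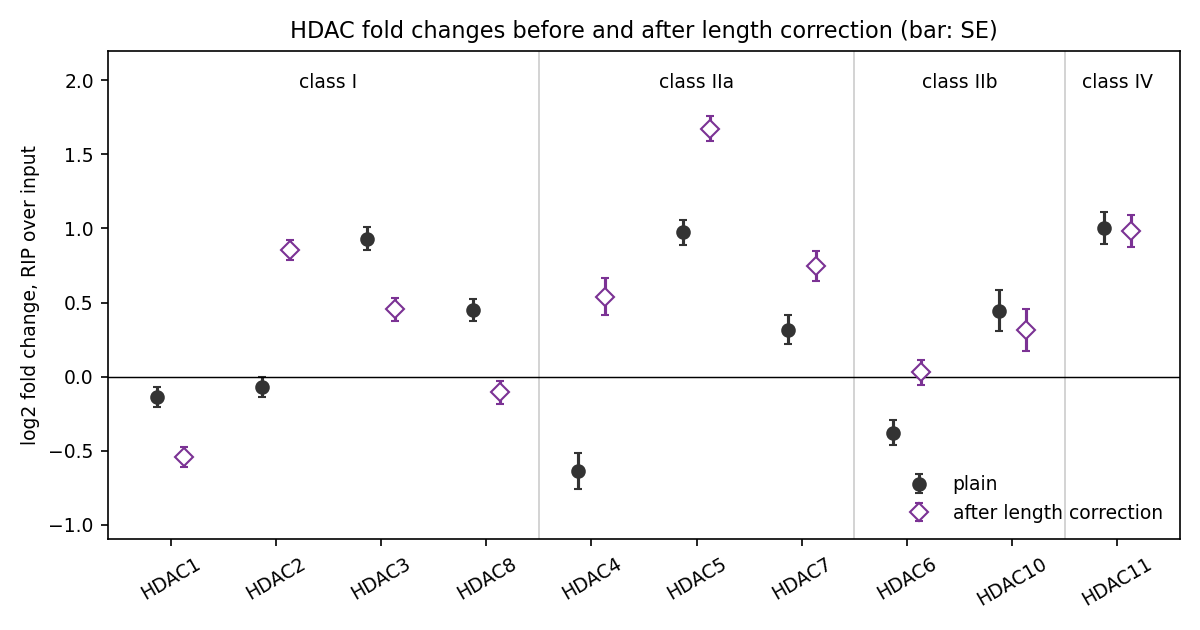
Log2 fold change of RIP over input with its SE for each HDAC gene, as measured (filled circles) and after length correction (open diamonds). HDAC2 and HDAC4 move from below 0 to 0.85 and 0.54, HDAC1 moves down to -0.54, and HDAC11 hardly moves.

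Among genes of proteins that work with or against the HDACs, more were lower than higher in RIP. All 63 listed genes were tested, and 17 were higher and 35 lower, where 38.0% of all tested genes were higher and 39.7% lower. These shares are also the background for the counts of each list. After length correction 16 were higher and 27 lower, beside 33.6% and 34.6% of all tested genes. With library totals 5 were higher and 53 lower, beside 17.0% and 65.5% of all tested genes. The median log2 fold change was -0.57 for NuRD, -0.17 for SIN3, -0.60 for CoREST, -0.98 for NCoR/SMRT, 0.04 for partners of class IIa enzymes and -0.66 for histone acetyltransferases, beside -0.03 for all tested genes. Most of these lists hold long mRNAs: the median effective length was 2.36 for NCoR/SMRT and 2.11 for acetyltransferases. After length correction the list medians lay between -0.54 (NCoR/SMRT) and 0.008 (acetyltransferases), beside -0.03 for all tested genes. Whether the lists differ from the HDAC genes was not tested.

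Of 12 NuRD genes 3 were higher and 7 lower. MBD3, the methyl-CpG-binding family subunit, had 424.6 and 407.2 CPM in RIP, against 168.3 and 182.3 CPM in input. This 2.37-fold rise was the highest in the list (edgeR adjusted p = 2.242e-10). The remodelling ATPase gene CHD4, the most abundant member, rose 1.32-fold (log2 fold change 0.40) on a long mRNA and stood at 1.30 after length correction. With library totals it was at -0.33. GATAD2A, a scaffold subunit, fell by 1.19 on the log2 scale (edgeR adjusted p = 9.343e-10) and stood at -0.42 after length correction.

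Of 13 SIN3 complex genes 4 were higher and 6 lower. SAP18 was both the most abundant and the most enriched member, with 158.6 and 147.7 CPM in RIP against 72.8 and 74.0 CPM in input (2.09-fold). SUDS3 fell by 1.87 on the log2 scale, with 26.3 and 31.1 CPM in RIP against 105.7 and 104.3 CPM in input. Of 8 CoREST genes 3 were higher and 5 lower. The lysine demethylase gene KDM1A rose 1.25-fold and the corepressor gene RCOR2 1.497-fold, while PHF21A, which codes for a reader of unmethylated histone H3, fell by 1.29. PHF21A did not pass after length correction (-0.29, edgeR adjusted p = 0.05825). With library totals KDM1A and RCOR2 were at -0.41 and -0.15 and no CoREST gene was higher, beside 17.0% of all tested genes.

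NCoR/SMRT is the complex in which HDAC3 works, and 4 of its 5 other listed genes were lower and 1 higher. TBL1XR1, a WD-repeat subunit, had 30.8 and 32.0 CPM in RIP, against 131.6 and 126.0 CPM in input, and fell by 2.04 on the log2 scale (edgeR adjusted p = 2.904e-12), with -1.13 after length correction. The scaffold gene NCOR1 fell by 1.62 and stood at -0.54 after length correction. The short GPS2 mRNA rose 1.335-fold before correction, and was at -0.63 after it and at -0.31 with library totals.

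Among 13 genes of class IIa partners, which are MEF2 factors, phosphoserine-binding adaptors and ankyrin-repeat proteins, 4 were higher and 4 lower. RFXANK, an ankyrin-repeat factor, rose 2.74-fold (1.46 on the log2 scale, and 0.62 after length correction), and MEF2A fell by 1.37 and stood at -0.62 after correction. The adaptor gene YWHAE, the most abundant member, did not pass the test (log2 fold change 0.12, edgeR adjusted p = 0.134). It did pass as higher without the first input library (0.21, adjusted p = 0.0005046), was at 0.057 without the second, and was at -0.42 after length correction. Of 12 acetyltransferase genes 2 were higher and 9 lower. KAT5, the catalytic subunit gene of the TIP60 complex, rose 1.445-fold, the coactivator gene NCOA1 fell by 1.49, and HAT1 was at -0.05 without a call (edgeR adjusted p = 0.5767). After length correction KAT5 did not pass (0.15, edgeR adjusted p = 0.1427), HAT1 was called lower at -0.69 (adjusted p = 7.155e-07), and NCOA1 stood at -0.54. With library totals KAT5 was at -0.20 and all 12 acetyltransferase genes were lower, beside 65.5% of all tested genes.

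**Figure D5:**
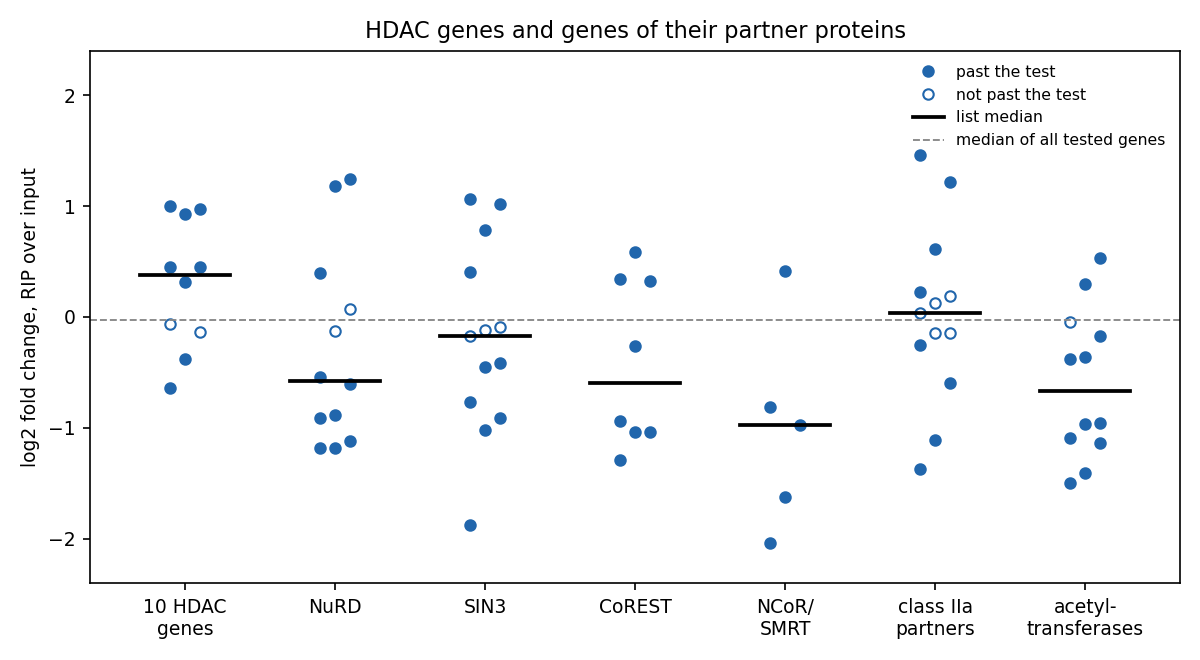
Log2 fold change of RIP over input for the 10 HDAC genes and for the genes of each partner list, with filled points past the edgeR threshold, open points not past it, a bar at each list's median and a dashed line at the median of all tested genes. The HDAC median of 0.38 lies above the dashed line, and the medians of NuRD, SIN3, CoREST, NCoR/SMRT and the acetyltransferases lie below it.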

How the data were processed

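One deposited table held 23615 genes in 4 libraries, all of them mapped to the titles. The submitters' processing notes name build hg19 and the tools Cuffdiff 2.2.1, TopHat2 2.0.13, Bowtie2 2.2.6 and cutadapt 1.5. The sources used here give neither the annotation nor the strand setting. The expected counts that the authors deposited are unscaled estimates of fragments on each gene (98.08% whole within 1e-06), and were rounded here to whole numbers. The deposited scaled fragments are a signal, the same fragments divided by 1 factor per library. The deposited FPKM values are the authors' length-scaled levels. Scaled fragments over FPKM gave each gene's effective length. The table numbers its libraries from 0, which were taken as replicates 1 and 2 of the titles. No HDAC entry had a failed status.

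Genes passing filterByExpr (minimum count 10, total 15) were tested in R 4.3.3 with edgeR 4.0.16 (glmQLFit, glmQLFTest) on TMM-scaled sizes, with no term beside group, and called at a Benjamini-Hochberg adjusted p of 0.05. The SE is the log2 fold change divided by the square root of F. Length correction put the lowess trend of the fold change over log2 length (span 0.3) into the offsets. The edgeR fit on TMM sizes, the fit with length offsets, DESeq2 and limma (on CPM) were tried on simulated counts with known changes. In that simulation few genes changed, unlike in these libraries, and the other alternatives were not simulated. Libraries of 1 group differed beyond sampling noise (chi-square per gene 3.40 in RIP, 6.17 in input), and all were kept. Depth bounds counting error only, since fragments may be copies of 1 molecule. Members, lists and tests were chosen with earlier results of these data known. Named were the 10 members, SIRT7 and, of each partner list, the most abundant gene and the called genes with a mean of at least 50 counts that changed most in each direction. Alternatives were library totals, DESeq2 size factors, DESeq2 1.42.0, no count filter, limma 3.58.1 on log2(FPKM + 1) and log2(FPKM + 0.1), length offsets, a replicate block and each library left out.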

Additional observations from a re-analysis of the deposited data

How the results depend on the processing

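The counts of HDAC genes higher and lower moved by over 1.5 times with library totals (3 and 6, and 2481 and 9539 of all genes) and, for lower genes, with length offsets (1). With library totals HDAC8, HDAC7 and HDAC10 turned to -0.28, -0.41 and -0.28. CHD4, KDM1A, RCOR2, GPS2, YWHAE and KAT5 turned to -0.33, -0.41, -0.15, -0.31, -0.61 and -0.20. On that scale the median log2 fold change of all tested genes was -0.76. With length offsets HDAC2, HDAC4, HDAC6 and HDAC8 turned to 0.85, 0.54, 0.028 and -0.11, and GPS2 and YWHAE to -0.63 and -0.42. Partner counts moved with library totals to 2 higher and 10 lower for SIN3, 0 higher for CoREST, NCoR/SMRT and acetyltransferases, and 1 higher and 9 lower for class IIa partners, and with length offsets to 3 lower for CoREST, 2 higher for class IIa partners and 5 lower for acetyltransferases. Length offsets ended the calls of PHF21A and KAT5 (-0.29 and 0.15) and called HAT1 lower (-0.69). Leaving out each library in turn gave 5 to 6 HDAC genes higher and 2 to 3 lower; HAT1 turned to 0.037 without the second input library and the length-corrected HDAC6, between -0.051 and 0.114 over these fits, below 0 without the first RIP library. A doubled span of the length trend and class ratios without each class I or class II gene in turn were alternatives chosen after seeing the data. The span brought HDAC10 past the threshold (0.33, adjusted p = 0.04722). The log2 difference of the class II to class I ratio was 0.090 in FPKM, -0.34 without HDAC5, -0.032 without HDAC1, 0.12 without HDAC2, 0.30 without HDAC4, 0.43 without HDAC3 and 0.45 without HDAC6. The causes of these changes were not tested.

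Samples with the same number did not deviate together (r = 0.0086 over 12165 genes), so the number is not shown to pair them. The replicate block gave 5580 genes higher and 5862 lower, and 6 and 2 HDAC genes, as without it. DESeq2 size factors, both limma settings and no count filter changed no HDAC call. HDAC10, HDAC4 and HDAC9 have the fewest fragments, and their values are the least precise.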
